A study of Mus musculus with 16 samples.

Results

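Small nucleolar RNAs (snoRNAs) and small Cajal body RNAs (scaRNAs) were followed in mouse testis RNA after immunopurification with the monoclonal antibody J2, which recognises RNA that is paired into double strands. The members are the genes whose symbol begins with Snora (H/ACA box snoRNAs), Snord (C/D box snoRNAs) or Scarna (scaRNAs), leaving out Snord118. There were 149 such genes among the 35920 of the table, namely 42 Snora, 98 Snord and 9 Scarna genes. The RNA held by J2 and the flow-through, which the labels describe as depleted of rRNA and dsRNA, were sequenced as separate strand-specific libraries (NuGEN Ovation SoLo) from 3 kinds of testis. The first was testis with the genotype labelled Dicer knock-out (Dcr-/-, KO below) at postnatal day 18 (P18). The second was adult testis labelled wild type, and the third was wild-type testis at P18 (WT below). Each P18 group had 3 libraries and each adult group had 2, which gave 8 J2 and 8 flow-through libraries. The P18 mice have the strain label C57BL/6 x 129S4/SvJae and the adults the strain label unknown, so age and strain cannot be told apart. No label states in which cells Dicer was deleted, or by what driver, or whether the libraries of a group came from separate animals. The p-values therefore measure the spread between these libraries, which may be technical.

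An H/ACA snoRNA folds into a pair of hairpins and, held by the dyskerin complex, directs the change of chosen uridines of ribosomal RNA to pseudouridine. A C/D snoRNA is mostly single-stranded between its boxes and, held by the fibrillarin complex, directs methylation of ribose at the base it pairs with. The scaRNAs carry either box type or both, stay in the Cajal bodies of the nucleus and direct the same changes in spliceosomal RNAs. Most mammalian members are cut out of introns of host genes, many of which encode ribosomal proteins or are noncoding transcripts.

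Dicer cuts the hairpin precursors of microRNAs, and RefSeq places microRNA hairpins on the coordinates of 7 members. The hairpins of the 4 tested members among them are shown here because a Dicer substrate and a member are annotated at the same positions. The strand of the members is not in the table used, so the overlap is by position and shared bases in the RNA are not shown. They are RefSeq sequences of build GRCm38.p6, read 5′ to 3′, with the annotated mature arms in capitals.
Mir3069, within Scarna13, chr12:105031077-105031141, minus strand: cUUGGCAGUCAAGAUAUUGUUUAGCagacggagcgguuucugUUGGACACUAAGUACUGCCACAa
Mir1843b, within Scarna3a, chr1:159340358-159340423, plus strand: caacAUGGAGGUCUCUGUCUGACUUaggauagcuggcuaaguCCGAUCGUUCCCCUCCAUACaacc
Mir1843a, overlapping Scarna3b, chr12:80391613-80391677, minus strand: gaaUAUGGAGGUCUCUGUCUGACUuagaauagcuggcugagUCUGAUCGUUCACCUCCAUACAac
Mir1291, overlapping Snora34, chr15:98519762-98519878, minus strand: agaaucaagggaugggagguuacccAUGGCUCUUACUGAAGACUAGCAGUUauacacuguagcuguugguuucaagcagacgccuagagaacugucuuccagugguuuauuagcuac
All 65 bases of the Mir3069 hairpin and all 66 of Mir1843b lie at positions of the member, and 64 of 65 bases of Mir1843a and 73 of 117 of Mir1291 do. The separate entries of these 4 microRNA genes were at 0 in all 16 libraries, so the values of these loci below are those of the members.

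The values are the authors' normalized counts, called units below. They are not whole reads, and the number of reads behind a value is unknown. The column totals were 0.446 to 0.824 M units in J2 libraries and 6.05 to 34.9 M units in flow-through libraries (1 M is 1e+06). Signal was concentrated in few genes, and the top 10 took 43.6% to 67.5% of a J2 library and 95.8% to 98.8% of a flow-through library. The top gene was CT010467.1 in every J2 library (37.9% to 62.4% of signal). In flow-through libraries it was Gm42418 or Lars2 (43.3% to 70.6%). These genes enter the column totals, and so the shares of signal and the rescaling to a common total below. The smallest value of any member above 0 was 0.0914 to 0.384 units in J2 libraries and 0.771 to 7.05 units in flow-through libraries, so the lowest values listed differed between the fractions. Adult J2 replicate 2 stood apart, with 22683 genes above 0 against 6874 to 11591 in the other 7 J2 libraries. Dicer1, the gene named by the genotype label, had 3.39, 0 and 0 units in KO J2 libraries against 11.3, 0 and 8.64 units in WT J2 libraries. Its flow-through values were 0, 3.68 and 8.33 units in KO against 5.10, 12.4 and 0 units in WT. The genotypes overlapped in both fractions, so these values do not separate the labels. The summed level of 9 spermatocyte and spermatid markers was 463 to 656 units in KO, 2038 to 3052 units in adult and 623 to 1459 units in WT J2 libraries. In flow-through it was 255 to 592 units in KO, 2100 to 2564 units in adults and 166 to 378 units in WT. Of these markers all 9 were above 0 in adults, while Prm1 and Tnp2 were at 0 in WT J2 libraries and Tnp1 in WT flow-through. Prm1, Prm2, Tnp1 and Tnp2 were at 0 in KO J2 libraries, and Prm1 and Tnp1 in KO flow-through. Most of the sum in P18 J2 libraries was Ldhc, with 427, 475 and 634 units in KO and 554, 1345 and 692 units in WT. In whole testis, fewer cells of a type and less RNA per cell cannot be told apart.

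More members were listed in J2 than in flow-through libraries. Of the 149 members, 116 had a value above 0 in at least 1 library, 114 of them in J2 and 64 in flow-through. The 116 are 77.9% of the members, against 67.4% of all genes. Of the 116, 52 were above 0 in J2 only and 2 in flow-through only, and 23 members were above 0 in all 8 J2 libraries against 5 in all 8 flow-through libraries. The shares of all genes for these splits were not counted. The splits include adult J2 replicate 2, and lower values were listed in J2 libraries, so nothing is read from them. The number of members above 0 was 55, 68 and 60 in KO J2 libraries and 20, 22 and 19 in KO flow-through libraries. In adults it was 43 and 101 in J2 and 11 and 41 in flow-through, and in WT it was 46, 66 and 59 in J2 and 17, 29 and 9 in flow-through. Each J2 library lay above the flow-through libraries of its condition. The mean difference was 40.7 members in KO, 46.0 in adults and 38.7 in WT, and in adults it was 17.0 without J2 replicate 2 and 75.0 without J2 replicate 1. Because of that difference, a common level of at least 10 units was counted as well. At that level 16, 17 and 23 members were listed in KO J2 libraries, against 15, 6 and 6 in KO flow-through libraries. In adults 18 and 11 were listed in J2 against 3 and 13 in flow-through, and in WT 15, 21 and 21 in J2 against 7, 4 and 5 in flow-through. At that level the adult fractions overlapped and the P18 fractions did not. Over all genes the same level held 3492 to 4950 genes in J2 libraries and 3598 to 4688 in flow-through libraries. Above 0 there were 6874 to 22683 genes in J2 libraries and 5953 to 12403 in flow-through libraries, with overlap in each condition. Adult J2 replicate 2, with 101 members above 0, was the library with 22683 genes.

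**Figure D1:**
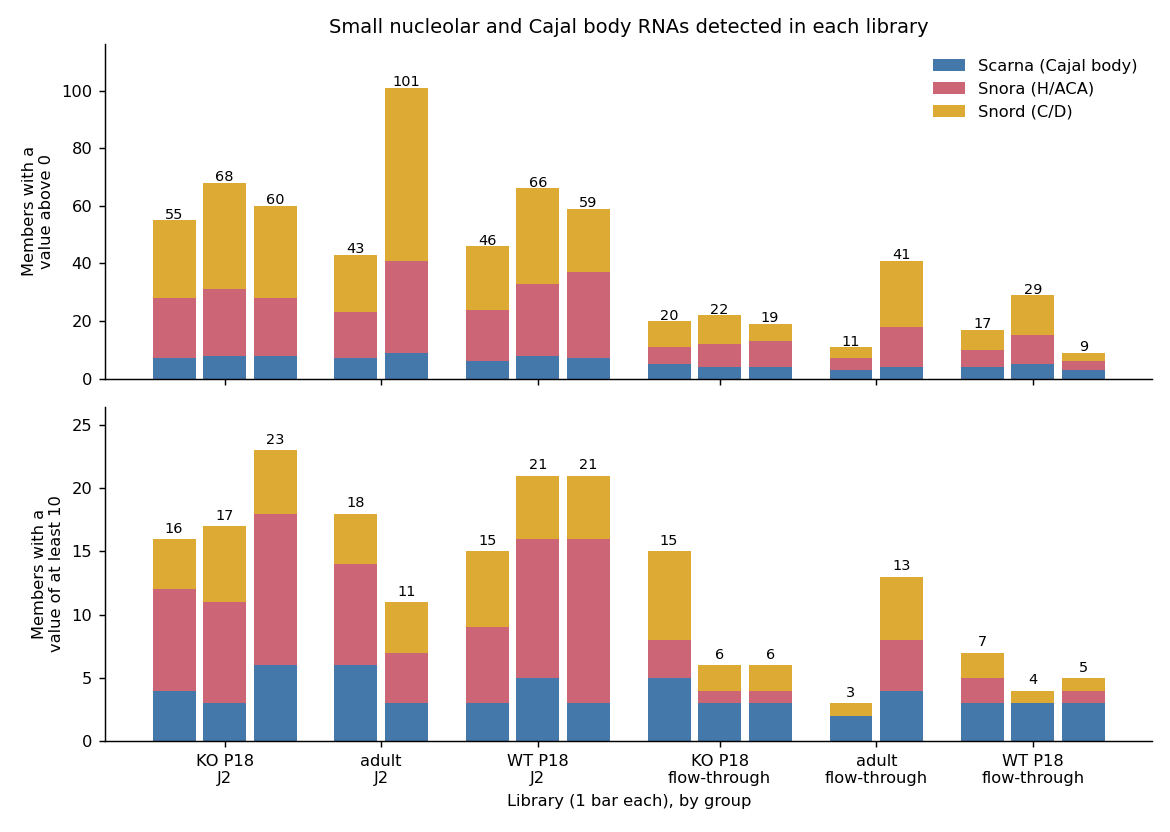
Number of members with a value above 0 (top) and of at least 10 units (bottom) in each of the 16 libraries, stacked by class, with J2 libraries on the left and flow-through libraries on the right. Above 0, J2 libraries list 43 to 101 members and flow-through libraries 9 to 41.

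The 3 classes differed in how often they were listed. H/ACA members above 0 numbered 16 to 32 of 42 in J2 libraries and 3 to 14 in flow-through libraries. C/D members above 0 numbered 20 to 60 of 98 in J2 libraries and 3 to 23 in flow-through libraries. Of the 9 Scarna members, 6 to 9 were above 0 in J2 libraries and 3 to 5 in flow-through libraries. Each class was listed more often in J2 libraries, and no J2 library had as few Scarna members as the flow-through libraries. The 33 members at 0 in all 16 libraries were 29 C/D and 4 H/ACA genes. They included all 17 genes named Snord116l, copies in the imprinted cluster whose human counterpart is lost in Prader-Willi syndrome.

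Members together made up 0.127% to 0.475% of the signal in J2 libraries and 0.00171% to 0.0104% in flow-through libraries. These shares are of column totals that were larger in flow-through. In units the members' sum was 723 to 3034 in KO J2 against 304 to 927 in KO flow-through. It was 1029 to 1186 against 195 to 1306 in adults and 1058 to 2119 against 314 to 690 in WT. The fractions thus overlapped in KO and adults and were apart in WT. Scarna10 was the highest member in 15 of the 16 libraries and held 36.1% to 54.7% of the members' sum there. The exception was adult flow-through replicate 2, in which Snord15b held 36.8% of the sum. Per 100 bases of RefSeq length, the level of Snord15b was 85.6 units in J2 and 87.1 units in flow-through as means of the 3 group means. Snora64 stood at 83.0 units per 100 bases in J2 and 1.75 in flow-through. RefSeq lists only 71 bases for Scarna10 and 61 for Scarna2, which is short for these RNAs and may be a partial entry, so no level per length is compared for them. The lengths the authors used are not given.

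A member was tested where its value reached 10 units in at least 2 of the libraries fitted. Of the 149 members 27 reached it, namely 13 H/ACA, 7 C/D and 7 Scarna genes, which is 18.1% of the members against 26.5% of all genes. By class this was 31.0% of the H/ACA, 7.14% of the C/D and 77.8% of the Scarna members. All 27 reached the level within the J2 libraries alone and 11 within the flow-through libraries alone. The other 16 entered only through the fraction in which they were high, so counts over the 27 members are given as descriptions and nothing is read from them.

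**Figure D2:**
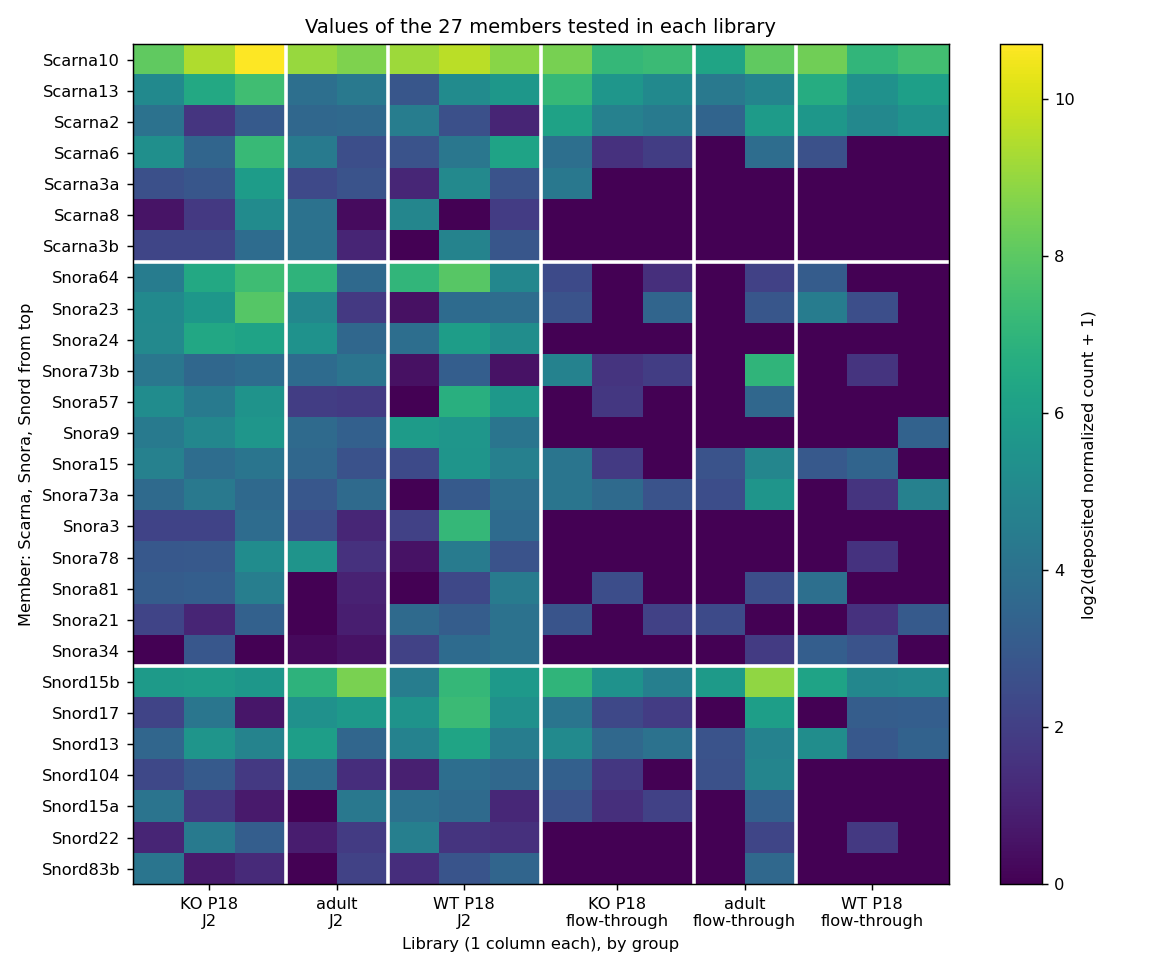
Values of the 27 tested members in the 16 libraries as log2(units + 1), with J2 libraries on the left, flow-through libraries on the right and the classes from top to bottom. Scarna10 is high in all 16 libraries, while Snora24, Snora3, Scarna8 and Scarna3b are at 0 in all 8 flow-through libraries.

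J2 was set against flow-through to see which members the antibody recovered. Snora24 in KO, and Snora24 and Snora64 in WT, were higher in J2 than in flow-through at an adjusted p under 0.05 (limma on log2(units + 1), Benjamini-Hochberg over 9526 genes), and no member was lower. In KO this was 1 of 27 members, where 0.168% of all genes tested were called higher and 0.189% lower (0.357% in all). In WT it was 2 of 27, where 0.525% were called higher and 0.378% lower (0.903% in all). In adults it was 0 of 27, where 0.147% were called higher and 0.168% lower (0.315% in all), and 4 members had an unadjusted p under 0.05. The share of all genes at that unadjusted level was 6.64%. Snora24 and Snora64 were both among the 16 members that entered only through J2. None of the 11 members that reached the level within each fraction was called. Neither WT call held with a pseudocount of 10 or in a fit to the WT libraries alone. A code in the column headings ties each J2 library to a flow-through library, and with that code as a replicate block no member was called in any condition. The adjusted p was then 0.0826 for Snora24 in KO, and 0.114 for Snora24 and 0.114 for Snora64 in WT. No label says what the code marks. The median log2 difference of the tested members was 2.24 in KO, 0.51 in adults and 2.13 in WT, and that of all genes tested was -0.15, 0.05 and -0.05. These differences are relative to the authors' scaling, under which the median gene lies near 0. As an alternative every library was rescaled to a common total, counted without the mitochondrially encoded genes. This moved the median of all genes to 2.16 in KO, 2.74 in adults and 1.87 in WT. It called 19, 11 and 19 members higher and 0 lower. Over all genes that scaling called 2848 higher and 15 lower in KO, 3460 and 11 in adults, and 2562 and 13 in WT.

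In KO, the J2 libraries lay wholly above the flow-through libraries for 12 of 27 members, against 6.95% of all genes tested. In adults this held for 9 members against 18.4% of genes, and in WT for 12 members against 7.08%. They lay wholly below for 1 member in each condition, against 11.1% of genes in KO, 17.3% in adults and 8.30% in WT. Among the 11 members that reached the level within each fraction the J2 libraries lay wholly above for 1 and wholly below for 1 in KO, 1 and 1 in adults, and 3 and 1 in WT. The shares above over the 5212 genes that did the same were 7.67% in KO, 19.7% in adults and 8.63% in WT, and the shares below were 9.55%, 17.7% and 8.44%.

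**Figure D3:**
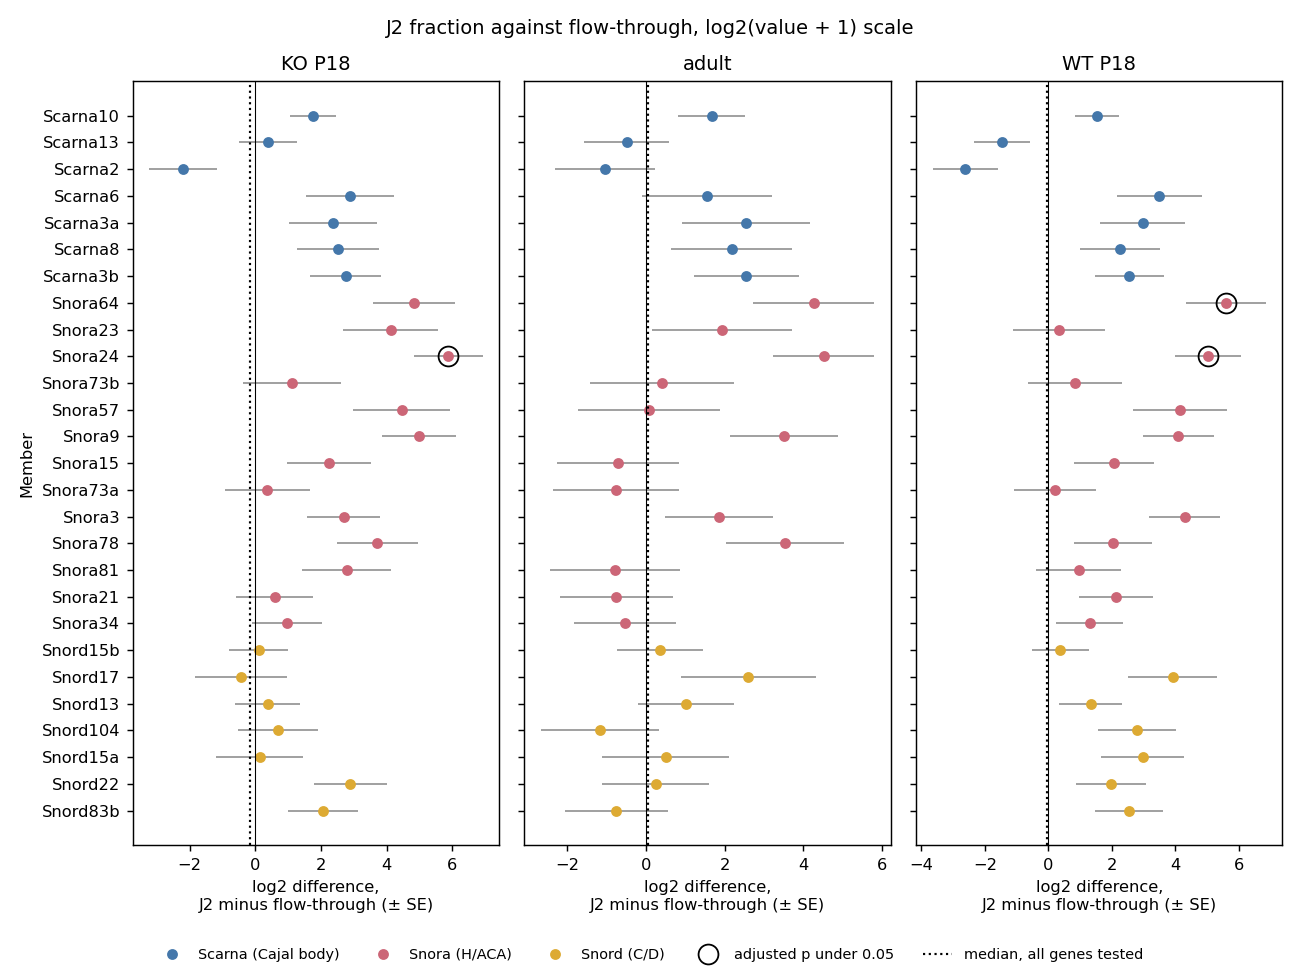
Log2 difference between J2 and flow-through (points, with standard error bars) of the 27 tested members in KO, adult and WT testis, coloured by class. The dotted line is the median of all genes tested and circles mark adjusted p under 0.05, which are Snora24 in KO and Snora24 and Snora64 in WT; points of members at 0 in flow-through depend on the pseudocount and are no fold.

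Among the H/ACA members, Snora24 (ENSMUSG00000092730, GRCm38.p6 chr3:123507937-123508066) lies within the noncoding host gene Snhg8 and guides pseudouridylation of the small ribosomal subunit RNA. It had 31.8, 83.8 and 72.3 units in KO J2 libraries, 42.6 and 10.9 units in adult J2 libraries and 13.7, 61.8 and 36.7 units in WT J2 libraries. It was listed at 0 in all 8 flow-through libraries. The fractions did not overlap in any condition, and since the flow-through values are 0 no fold is given. The limma adjusted p was 0.00988 in KO, 0.291 in adults and 0.0264 in WT. The KO call was lost without KO J2 replicate 2 (adjusted p 0.0767) or 3 (0.0627). The WT call was lost without flow-through replicate 1 (0.0839), 2 (0.0502) or 3 (0.0711), or without J2 replicate 2 (0.0999) or 3 (0.0623).

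Snora64 (ENSMUSG00000077709, chr17:24720789-24720905) lies within Rps2, which encodes a protein of the small ribosomal subunit, and guides pseudouridylation of the large subunit RNA. It had 21.7, 86.4 and 163 units in KO J2 libraries, against 4.26, 0 and 1.70 units in KO flow-through. Adults had 122 and 11.5 units in J2 against 0 and 3.20 units in flow-through, and WT had 132, 241 and 29.9 units in J2 against 7.67, 0 and 0 units in flow-through. Every J2 library lay above the flow-through libraries of its condition. The log2 difference was 4.83 ± 1.26 (SE) in KO (limma adjusted p 0.125), 4.26 ± 1.54 in adults (0.648) and 5.60 ± 1.26 in WT (0.0443). With flow-through values low or at 0, these differences depend on the pseudocount. The WT call was lost without flow-through replicate 2 (0.0968) or 3 (0.134), or without J2 replicate 1 (0.110) or 2 (0.142), and it was also lost with no filter on low values (0.128).

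Snora9 (ENSMUSG00000064513) had 19.9, 29.5 and 47.6 units in KO J2 libraries, 12.2 and 8.77 in adult J2 libraries and 58.4, 48.7 and 16.9 in WT J2 libraries. In flow-through it was at 0 in 7 of 8 libraries and at 9.38 units in WT replicate 3. The fractions did not overlap, yet the test passed in no condition, with limma adjusted p of 0.0678 in KO, 0.657 in adults and 0.0851 in WT, where the log2 difference was 4.10. Snora3 and Snora78, added after their values were seen, showed a like pattern. Snora3, within the ribosomal protein gene Rpl27a, was at 0 in all flow-through libraries. Its J2 values were 3.47, 3.38 and 12.7 units in KO, 4.97 and 1.22 in adults and 3.23, 138 and 12.2 in WT, where the limma adjusted p was 0.0743. Snora78 lies within Rps2, and by position within the noncoding gene Snhg9 too. It had 6.64, 7.01 and 36.2 units in KO J2 libraries, 46.0 and 1.88 in adult J2 libraries and 0.432, 20.6 and 5.69 in WT J2 libraries. It was above 0 in 1 flow-through library, WT replicate 2, with 1.95 units, which lay within the range of the WT J2 values.

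Snora57, within Lbhd1, guides pseudouridylation of the small subunit RNA and had 36.2, 20.5 and 43.6 units in KO J2 libraries against 0, 2.38 and 0 units in KO flow-through. In adults it had 2.79 and 2.53 units in J2 against 0 and 10.96 in flow-through, and in WT 0, 106 and 51.8 units in J2 against 0 in all 3 flow-through libraries. The fractions were apart in KO and overlapped in adults and WT. Its log2 difference was 4.46 in KO (limma adjusted p 0.235) and 0.08 in adults (0.997), and the adjusted p in WT was 0.196. Snora23, within the importin gene Ipo7, had 33.2, 48.9 and 231 units in KO J2 libraries against 5.67, 0 and 10.2 units in KO flow-through. It had 29.5 and 2.41 units in adult J2 against 0 and 6.19 in adult flow-through, and 0.388, 12.6 and 13.1 units in WT J2 against 21.4, 4.92 and 0 in WT flow-through. The fractions were apart in KO and overlapped in adults and WT, and the log2 difference was 4.12 in KO (limma adjusted p 0.274), 1.93 in adults (0.907) and 0.33 in WT (0.973). The test of that difference between genotypes did not pass (log2 3.79, adjusted p 0.996).

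The remaining named H/ACA members overlapped between the fractions. Snora73a and Snora73b, near-identical copies within Snhg3 that act in cleavage of the ribosomal RNA precursor, are reported as uncertain because reads could be split between them. Snora73b had 18.0, 10.95 and 12.6 units in KO J2 against 25.6, 2.04 and 2.81 in KO flow-through, and 12.5 and 16.3 in adult J2 against 0 and 128 in adult flow-through. In WT it had 0.381, 8.05 and 0.421 units in J2 against 0, 2.04 and 0 in flow-through. The fractions overlapped in all 3 conditions, and the log2 difference was 1.11 in KO (limma adjusted p 0.831), 0.42 in adults (0.982) and 0.85 in WT (0.856). Snora73a had 12.2, 19.2 and 11.5 units in KO J2 against 16.9, 12.1 and 5.57 in KO flow-through. WT libraries had 0, 7.12 and 14.2 units in J2 against 0, 2.02 and 25.1 in flow-through. In adults it had 6.42 and 12.1 units in J2 against 4.79 and 47.5 in flow-through. Its log2 difference was 0.37 in KO (limma adjusted p 0.973), -0.77 in adults (0.960) and 0.21 in WT (0.992), again with overlap. Snora15, within the chaperonin gene Cct6a, had 25.0, 13.2 and 16.7 units in KO J2 against 16.7, 2.52 and 0 in KO flow-through. Adult J2 libraries had 10.8 and 5.42 units against 5.60 and 29.2 in flow-through, and WT J2 libraries had 4.22, 46.9 and 24.4 units against 6.90, 9.91 and 0. It overlapped as well, with log2 differences of 2.24 in KO (limma adjusted p 0.525), -0.70 in adults (0.963) and 2.07 in WT (0.482).

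**Figure D4:**
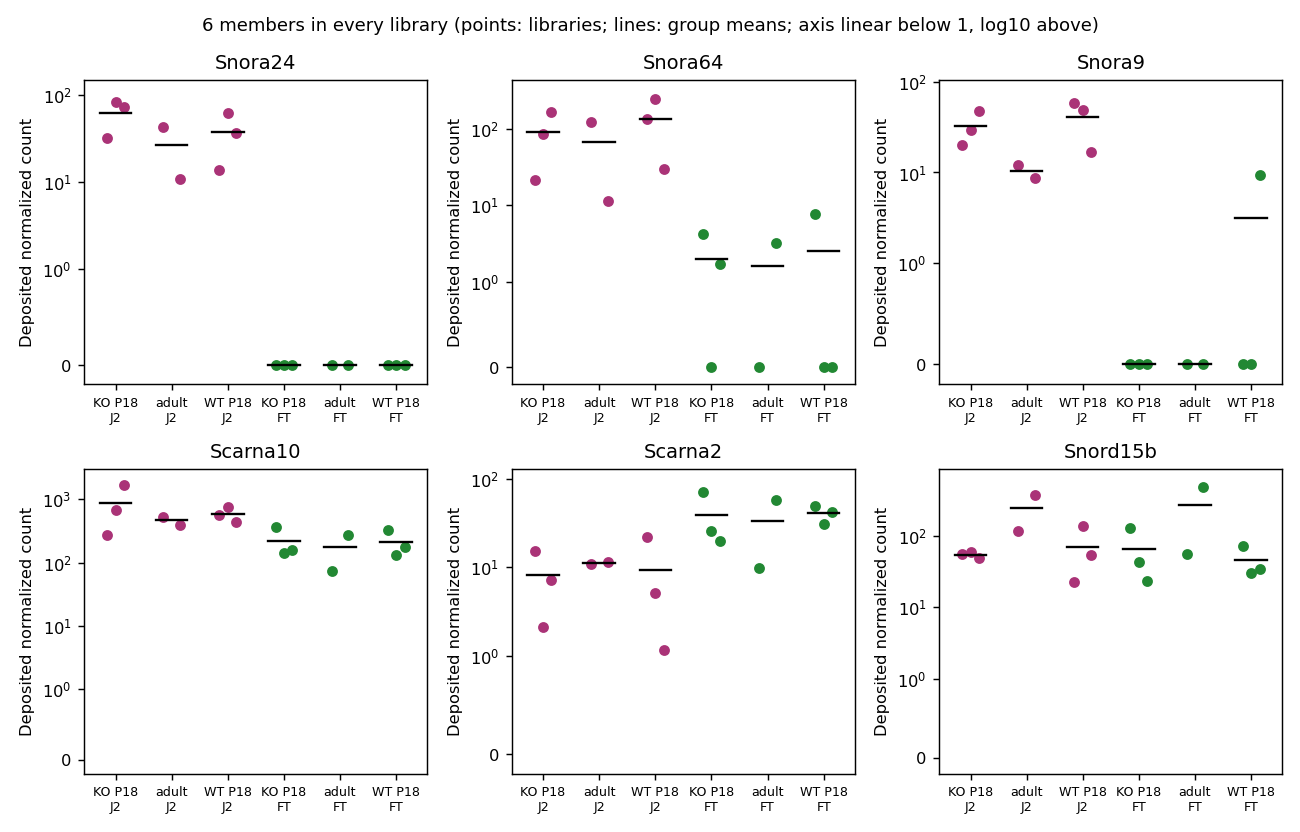
Units of 6 members in every library, with J2 groups on the left and flow-through (FT) groups on the right. Points are libraries, lines are group means, and the axis is linear below 1 and log10 above. Snora24, Snora64 and Snora9 lie near 0 in flow-through, Scarna10 and Snord15b are high in both fractions, and Scarna2 is lower in P18 J2 libraries.

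Among the C/D members no test passed in any condition, where the smallest limma adjusted p was 0.329 in KO, 0.837 in adults and 0.196 in WT. At an unadjusted p under 0.05 there were 1, 0 and 4 of the 7 tested in KO, adults and WT, against 11.5%, 6.64% and 13.9% of all genes. Of these 7 members 4 entered only through J2, so nothing is read from that count. Snord15b (ENSMUSG00000064966, chr7:99479563-99479707) lies within Rps3 and guides ribose methylation of the large subunit RNA. It had 55.8, 59.2 and 49.6 units in KO J2 against 128, 42.8 and 23.7 in KO flow-through, and 118 and 375 in adult J2 against 55.3 and 481 in adult flow-through. For WT the values were 22.4, 137 and 53.3 units in J2 against 73.0, 30.4 and 34.1 in flow-through. The fractions overlapped in all 3 conditions. Its log2 differences were 0.10 in KO (limma adjusted p 1), 0.36 in adults (0.970) and 0.37 in WT (0.912). Snord15a, its copy in the same host, had 16.2, 2.33 and 0.722 units in KO J2 against 5.64, 1.69 and 3.22 in KO flow-through. In adults it had 0 and 18.6 units in J2 against 0 and 8.70 in flow-through, and in WT 15.1, 12.1 and 1.31 units in J2 against 0 in all 3 flow-through libraries. Reads could be shared between Snord15a and Snord15b, so the split between them is uncertain. The limma adjusted p of Snord15a was 1 in KO (log2 0.13), 0.971 in adults (log2 0.51) and 0.311 in WT.

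Snord17, within the sorting nexin gene Snx5, guides ribose methylation of the large subunit RNA. It had 3.60, 17.5 and 0.565 units in KO J2 against 16.6, 3.98 and 2.73 in KO flow-through, and 41.6 and 54.4 in adult J2 against 0 and 63.4 in adult flow-through. In WT it had 43.6, 156 and 39.9 units in J2 against 0, 7.93 and 8.22 in flow-through. The fractions were apart in WT and overlapped in KO and adults. The log2 difference was -0.43 in KO (limma adjusted p 0.963), 2.60 in adults (0.837) and 3.92 in WT (0.196). Without adult flow-through replicate 1 the adult value was -0.41 and without replicate 2 it was 5.60. The KO value was 0.42 without J2 replicate 3 and 0.24 without flow-through replicate 1, so neither direction held. The test of the difference between genotypes gave log2 -4.36 with an adjusted p of 0.993 and an unadjusted p of 0.0401, so it did not pass. Snord13 (U13), which takes part in acetylation of the small subunit RNA and sits within no annotated gene, had 10.4, 46.3 and 26.7 units in KO J2 against 33.5, 11.2 and 15.2 in KO flow-through. It had 62.9 and 10.6 units in adult J2 against 5.70 and 25.5 in adult flow-through, and 25.5, 75.8 and 22.0 in WT J2 against 36.9, 6.62 and 9.16 in WT flow-through. All 3 conditions overlapped, with log2 differences of 0.38 in KO (limma adjusted p 0.945), 1.03 in adults (0.940) and 1.33 in WT (0.577).

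The other named C/D members were low. Snord104 stood between 0.926 and 13.5 units in J2 libraries and between 0 and 28.6 units in flow-through libraries. Its log2 difference was 0.70 in KO (limma adjusted p 0.888) and -1.16 in adults (0.943), and in WT, where it was at 0 in flow-through, the adjusted p was 0.303. Snord22, within Snhg1 and known in Xenopus to be needed for maturation of the small subunit RNA, stood between 0.835 and 23.8 units in J2 and between 0 and 3.74 in flow-through. Its limma adjusted p was 0.329 in KO, 0.985 in adults (log2 0.25) and 0.443 in WT (log2 1.98). Snord83b, within the ribosomal protein gene Rpl3, stood between 0 and 16.7 units in J2 and between 0 and 11.1 in flow-through, with limma adjusted p of 0.476 in KO, 0.958 in adults (log2 -0.74) and 0.277 in WT. Snord53 had 77.0 units in KO J2 replicate 3 and at most 7.17 units in any other library, and so was not tested. It stood high in that library alone, and no C/D member passed the test.

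Among the Scarna members no test passed either, where the smallest limma adjusted p was 0.345 in KO, 0.771 in adults and 0.236 in WT. At an unadjusted p under 0.05 there were 4, 0 and 5 of the 7 tested in KO, adults and WT, against the same shares of all genes, with Scarna2 in the opposite direction among them. Of these 7 members 3 entered only through J2, so nothing is read from that count either. Scarna10 (U85; ENSMUSG00000089617, chr6:125186361-125186431) carries both box types and guides changes in a spliceosomal RNA. It had 269, 687 and 1659.9 units in KO J2 against 359, 140.4 and 158 in KO flow-through, and 530.5 and 393 in adult J2 against 74.2 and 273 in adult flow-through. WT libraries gave 566, 765 and 438 units in J2 against 328, 129.7 and 177 in flow-through. J2 lay wholly above flow-through in adults and WT, and in KO only J2 replicate 1 fell within the flow-through range. The log2 difference was 1.75 ± 0.70 (SE) in KO (limma adjusted p 0.349), 1.67 ± 0.86 in adults (0.771) and 1.55 ± 0.70 in WT (0.322).

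Scarna2 (ENSMUSG00000088185, chr3:108554342-108554402), a C/D scaRNA that guides methylation of U2 RNA and sits within no annotated gene, ran the other way at P18. It had 15.2, 2.10 and 7.20 units in KO J2 against 71.2, 25.3 and 19.6 in KO flow-through, and 10.9 and 11.6 in adult J2 against 9.76 and 57.1 in adult flow-through. For WT the values were 21.9, 5.15 and 1.14 units in J2 against 49.2, 30.7 and 42.2 in flow-through. J2 lay wholly below flow-through in KO and WT and within its range in adults. The log2 difference was -2.19 ± 1.03 (SE) in KO (limma adjusted p 0.432), -1.03 ± 1.27 in adults (0.942) and -2.61 ± 1.03 in WT (0.254). With libraries rescaled to the common total without mitochondrially encoded genes these became 1.55 in KO, 2.90 in adults and 0.96 in WT. Relative to the median of all genes under that scaling they were -0.61, 0.16 and -0.91.

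Scarna13 (U93; ENSMUSG00000088789, chr12:105031075-105031349), an H/ACA scaRNA within the noncoding gene Snhg10, had 33.2, 87.0 and 168 units in KO J2 against 142, 47.8 and 32.7 in KO flow-through. It had 13.8 and 19.0 units in adult J2 against 19.2 and 27.6 in adult flow-through, and 6.17, 35.1 and 49.4 units in WT J2 against 98.1, 41.5 and 65.5 in WT flow-through. J2 lay below flow-through in adults by a small margin, and the P18 fractions overlapped. Its log2 difference was 0.37 in KO (limma adjusted p 0.932), -0.48 in adults (0.963) and -1.47 in WT (0.472). Scarna6, within the autophagy gene Atg16l1, had 39.3, 10.2 and 146 units in KO J2 against 13.8, 1.87 and 2.87 in KO flow-through. In adults it had 19.7 and 4.87 units in J2 against 0 and 13.2 in flow-through, and in WT 5.65, 17.8 and 71.8 units in J2 against 5.26, 0 and 0 in flow-through. The WT fractions were apart by a narrow gap, and the others overlapped. The log2 difference was 2.88 in KO (limma adjusted p 0.425), 1.55 in adults (0.923) and 3.50 in WT (0.236). Scarna3a, Scarna3b and Scarna8 stood between 0 and 59.7 units in J2 libraries, and in flow-through the only value above 0 was 18.8 units of Scarna3a in KO replicate 1.

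The comparison of KO with WT asks whether members differed with the Dicer genotype. In J2 libraries 27 members were tested and none was called among 6882 genes, of which 0% were called (limma adjusted p under 0.05). At an unadjusted p under 0.05 there were 3 members, Snord17, Snora23 and Snora34, against 6.39% of all genes, with the smallest adjusted p at 0.686. Snord17 had 3.60, 17.5 and 0.565 units in KO against 43.6, 156 and 39.9 units in WT J2 libraries, while Snora23 had 33.2, 48.9 and 231 units in KO against 0.388, 12.6 and 13.1 units in WT. Both had groups that did not overlap, in opposite directions, and neither passed the test. In all, KO lay wholly above WT for 2 of 27 members against 6.12% of genes, and wholly below for 1 member against 3.78%. The summed level of 4 spermatogonial markers, all above 0 in each group, was 133 to 250.4 units in KO and 41.2 to 101 units in WT J2 libraries. Of these 4, only Zbtb16 had a lower mean in KO (0.0851 units) than in WT (18.3 units) J2 libraries. The spermatogonial sums overlapped in flow-through, at 103 to 128 units in KO and 44.4 to 123 units in WT. In flow-through the sum of 5 Sertoli cell markers, of which Amh was at 0, was 228 to 268 units in KO and 144 to 167 units in WT. The Sertoli sums overlapped in J2, at 290 to 531 units in KO and 143 to 505 units in WT. The part of these markers in the comparison was not tested. In flow-through 11 members were tested among 7141 genes and none was called, where 0% of all genes were called and 0 members had an unadjusted p under 0.05 against 6.11% of genes. No member had a genotype by fraction difference that passed either, with 0% of 9526 genes called and 1 member, Snord17, at an unadjusted p under 0.05 against 4.78% of genes. The median log2 difference of the members in J2 was 0.19, against 0.13 for all genes tested, and in flow-through 0.26 against 0.33.

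The members at positions of microRNA hairpins were chosen for that overlap and not for their values. None of the 4 tested was called by genotype in J2 libraries. Scarna13 had 33.2, 87.0 and 168 units in KO J2 libraries against 6.17, 35.1 and 49.4 units in WT J2 libraries. Scarna3a had 5.08, 6.26 and 59.7 units in KO J2 against 1.23, 31.6 and 5.63 in WT J2, and Scarna3b had 3.76, 3.65 and 12.8 units against 0, 26.96 and 6.32. Snora34 had 0, 6.47 and 0 units in KO J2 against 3.29, 12.2 and 15.2 in WT J2. As given above, Snora34 had an unadjusted p under 0.05 (limma), against 6.39% of all genes. The genotypes overlapped for each of these 4 members, and the limma adjusted p was 0.849, 0.981, 1 and 0.741 in that order. Among the other 3, Snora36b was at 0 in all 16 libraries, Snord33 stood between 0 and 12.2 units, and Snora19 reached 38.6 units in WT J2 replicate 1 and at most 0.955 elsewhere.

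Adults were compared with WT P18 to ask what differed with age. In J2 libraries 0 of 27 members were called (limma adjusted p under 0.05), where 5.07% of 6882 genes were called higher and 0.392% lower in adults (5.46% in all). At an unadjusted p under 0.05 there were 2 members, Snora21 and Snora34, named for this, against 14.1% of all genes. Without WT J2 replicate 1, 1 member (Snora57) was called. The median log2 difference of the members was -0.45 against 0.33 for all genes tested. Snora21, within the ribosomal protein gene Rpl23, had 0 and 0.884 units in adult J2 libraries against 12.1, 7.95 and 15.5 units in WT J2 libraries (limma adjusted p 0.258). Snord15b had 118 and 375 units in adult J2 against 22.4, 137 and 53.3 in WT J2, with a log2 difference of 1.92 and an adjusted p of 0.371. Snora21 was apart between the ages and Snord15b overlapped, and neither passed the test. Adults lay wholly above WT for 1 of 27 members against 18.7% of genes, and wholly below for 3 members against 8.83%. In flow-through 0 of 11 members were called, where 3.08% of 7141 genes were called higher and 0.154% lower (3.23% in all), and 0 members had an unadjusted p under 0.05 against 11.7% of genes. The smallest adjusted p there was 0.481, and no age by fraction difference passed, with 0% of 9526 genes called and 0 members at an unadjusted p under 0.05 against 5.40% of genes. The spermatocyte and spermatid marker sums given above were higher in adult than in WT libraries of both fractions. In J2 the summed level of 4 blood markers was 4.03 to 5.79 units in adults and 106 to 445 units in WT, and that of 2 peritubular myoid markers was 7.51 to 9.77 units in adults and 69.6 to 115 units in WT. In flow-through the blood sum was 11.4 to 17.0 units in adults and 111 to 194 units in WT. The myoid sum overlapped there, at 30.9 to 205 units in adults and 142 to 426 units in WT. The Sertoli sum was 64.9 to 135 units in adult and 143 to 505 units in WT J2 libraries, and overlapped in flow-through. The spermatogonial sum was 21.6 to 35.6 units in adult and 44.4 to 123 units in WT flow-through, and overlapped in J2. Sums of Leydig cell and macrophage markers overlapped in both fractions. The part of these markers in the comparisons was not tested.

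By coordinates, 134 of the 137 members with a RefSeq position lay within another gene, 92 within a protein-coding gene and 42 within a noncoding gene only. The strand of the members is not in the table used, so the nesting is by position. Of the hosts of tested members, 15 were in the fit over both fractions. Rps3 was called higher in J2 in KO (log2 3.67, limma adjusted p 0.0323) and WT (log2 3.38, 0.0379) and not in adults (log2 1.07, 0.886). No other host was called in a J2 against flow-through test. This was 1 of 15 hosts in KO and in WT, where 0.168% and 0.525% of all genes tested were called higher. For adults against WT, Rps3 was called lower in J2 (log2 -3.18, limma adjusted p 0.0158), where 0.392% of genes were. Lbhd1 was called higher in flow-through (log2 4.72, 0.00566), where 3.08% of genes were. Rps3 had 111, 182 and 162 units in KO J2 against 9.12, 7.72 and 17.5 units in KO flow-through. In WT it had 185, 174 and 138 units in J2 against 17.3, 12.5 and 15.1 in flow-through. In adults Rps3 had 11.4 and 25.7 units in J2 against 4.27 and 13.4 in flow-through. The Rps3 fractions were far apart in both genotypes at P18 and overlapped in adults. Those of Snord15a and Snord15b, which Rps3 holds, overlapped in KO and adults, and those of Snord15b overlapped in WT. Rps2 holds Snora64 and Snora78, and by position the noncoding gene Snhg9 holds Snora78 too. Rps2 had 85.7, 66.9 and 99.1 units in KO J2 against 81.4, 34.9 and 49.0 in KO flow-through. WT libraries had 61.4, 50.5 and 64.1 units in J2 against 20.6, 39.7 and 49.1 in flow-through. The log2 difference of Rps2 was 0.67 in KO (limma adjusted p 0.843), 1.88 in adults (0.821) and 0.75 in WT (0.772). For Snora64 it was 4.83, 4.26 and 5.60 in that order. The values of Snora64 in flow-through were low or 0, so its differences depend on the pseudocount. Ncapd2, a condensin gene that holds Scarna10, had 3.44, 0.400 and 7.20 units in KO J2 against 78.5, 38.5 and 41.4 in KO flow-through. Its log2 difference was -3.78 in KO (limma adjusted p 0.292), -4.15 in adults (0.679) and -2.75 in WT (0.382), below 0 in each condition where that of Scarna10 was above 0. The difference between a member and its host was not tested.

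Longer members were tested more often. Lengths from RefSeq had a median of 120 bases for 37 H/ACA members, 76 for 91 C/D members and 118 for 9 Scarna members. Of the members with at least 120 bases 16 of 26 reached the level for testing, of those from 90 to under 120 bases 6 of 43, and of those under 90 bases 4 of 68. Among C/D members alone all 4 with at least 120 bases reached it, namely Snord15a, Snord15b, Snord17 and Snord22, and 3 of the 87 shorter ones. Across the 137 members, Spearman's rho between length and mean value was 0.37 in J2 and 0.23 in flow-through. Within classes it was 0.32 in J2 and 0.35 in flow-through for H/ACA members, -0.02 and 0.03 for C/D members, and 0.59 and 0.07 for the 9 Scarna members. The short RefSeq lengths of Scarna10 and Scarna2 enter these values. These are descriptions across genes that share libraries and preparation.

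**Figure D5:**
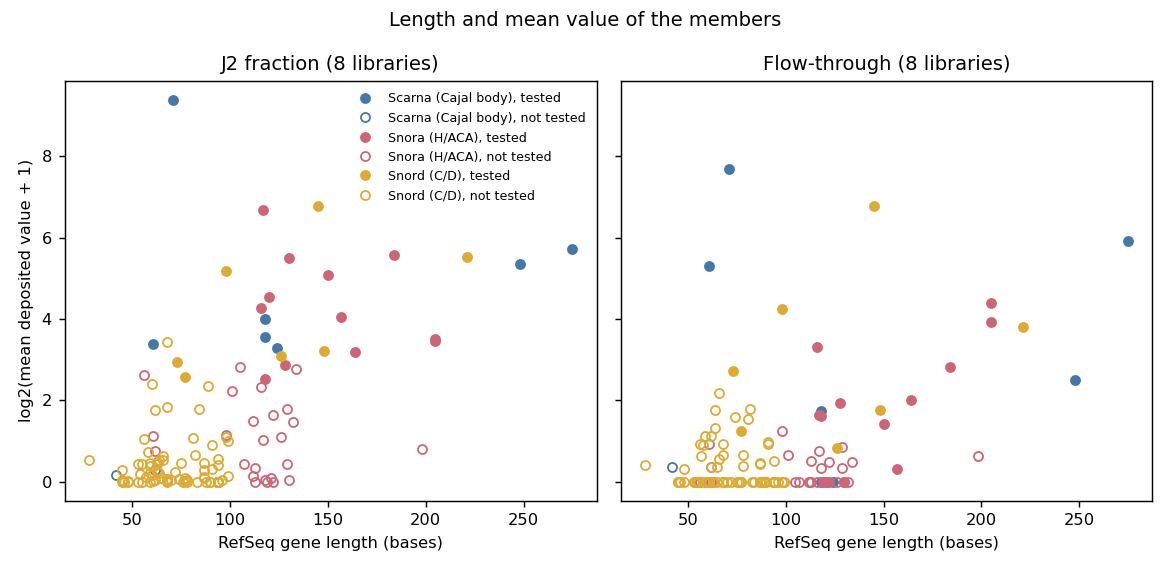
RefSeq length of 137 members against log2 of their mean units plus 1 in J2 (left) and flow-through (right), coloured by class, with filled points for tested members. Of 68 members under 90 bases 4 were tested, and of 26 members with at least 120 bases 16 were.

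The members above 0 that were not tested numbered 89, namely 62 C/D, 25 H/ACA and 2 Scarna genes. Their highest value in any library had a median of 2.51 units and reached 10 units in 18 of them. For 60 the highest value was in a J2 library and for 29 in a flow-through library, and 17 were above 0 in 1 library only. Apart from Snord53 the highest were Snora52 with 42.8 units in WT J2 replicate 2, Snora19 with 38.6 units in WT J2 replicate 1 and Snora33 with 37.6 units in WT J2 replicate 3, named here after their values were seen. Each came from 1 library, and the other libraries of the group lay at or under 2.11 units.

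The proteins that bind, assemble or house these RNAs, and their noncoding hosts, formed 5 lists. No gene of these lists was called in any of the 9 comparisons, among 24 tested over both fractions, at the backgrounds given above. At an unadjusted p under 0.05 there were 3 in KO, 2 in adults and 3 in WT for J2 against flow-through. All 4 C/D core proteins were tested, with a median log2 difference of -1.42 in KO, -0.29 in adults and 1.64 in WT. Of the 4 H/ACA core proteins 3 were tested, with medians of -0.22 in KO, 0.62 in adults and 0.57 in WT. The 8 of 9 assembly factors tested had medians of -0.74, -0.82 and -0.19, and the 6 of 7 Cajal body and nucleolar proteins had medians of 0.39, 0.20 and 0.57, in the same order. Of 21 noncoding host genes 9 were in the table and 3 were tested. Snu13, the protein that first binds C/D snoRNAs, had 89.5, 159 and 244 units in KO J2 against 15.6, 26.7 and 20.3 in KO flow-through. For WT the values were 82.8, 74.1 and 66.1 units in J2 against 16.8, 14.5 and 17.4 in flow-through. Adults had 94.1 and 61.8 units in J2 against 14.9 and 43.4 in flow-through. The Snu13 fractions did not overlap in any condition, and the limma adjusted p was 0.107 in KO, 0.802 in adults and 0.157 in WT. Over all genes tested J2 lay wholly above for 6.95% in KO, 18.4% in adults and 7.08% in WT. Coil, which encodes coilin of the Cajal body, had 10.6, 5.85 and 360 units in KO J2 against 11.5, 20.6 and 25.5 in KO flow-through. It had 56.1 and 35.0 units in adult J2 against 35.6 and 27.2 in adult flow-through. In WT it had 27.3, 0 and 17.6 units in J2 against 37.0, 32.7 and 42.6 in flow-through. Npm1, which encodes nucleophosmin of the nucleolus, had 14.9, 53.8 and 43.7 units in KO J2 against 35.3, 58.0 and 69.0 in KO flow-through. It had 82.3 and 57.5 units in adult J2 against 12.9 and 32.0 in adult flow-through, and 59.1, 70.6 and 23.3 units in WT J2 against 39.1, 26.5 and 31.9 in WT flow-through. Ruvbl2, an ATPase of the assembly machinery, had 8.14, 3.25 and 29.4 units in KO J2 against 59.3, 55.0 and 32.8 in KO flow-through. It had 7.37 and 6.37 units in adult J2 against 127 and 36.2 in adult flow-through, and 38.8, 14.8 and 4.53 units in WT J2 against 45.6, 38.1 and 31.1 in WT flow-through. In J2 Coil lay wholly below flow-through in WT and overlapped in KO and adults. Npm1 lay wholly above in adults and overlapped in KO and WT, and Ruvbl2 lay wholly below in KO and adults and overlapped in WT. The shares of all genes wholly above or below are those given above. None of these passed the test.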

How the data were processed

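The deposited table holds a signal per Ensembl gene and library, normalized counts made by the authors. The submitters' processing notes name FastQC, Trimmomatic, Salmon, DESeq2 and the build mm10, with no version; their settings are not given in the sources used here. Of 35920 identifiers 35446 matched a symbol. All columns were matched to a library by label (0 left over). Whole reads could not be recovered (0.276% to 0.758% of values above 0, and 8.12% in adult J2 replicate 2, were whole multiples up to 20 of the best step among values shared by at least 3 genes, within a relative 1e-06), so no count test was run. limma 3.58.1 in R 4.3.3 was fitted to log2(value + 1) with a mean trend, over 16 libraries for J2 against flow-through and for interactions, and over the 8 libraries of a fraction otherwise. Genes needed a value of at least 10 in 2 of the libraries fitted, tests were two-sided, and p-values were adjusted by Benjamini-Hochberg over all genes tested. The fit was tested on simulated data with a common spread for all genes and changes only in genes of higher mean level. That test does not cover members at or near 0 in flow-through. Named members were those called, plus the 8 Snora, 8 Snord and 4 Scarna members with the highest mean of the 6 group means, plus copies. Positions, lengths and hairpins come from RefSeq on GRCm38.p6, the assembly mm10 names. The members and lists were chosen with earlier results of these data known. Alternatives were another pseudocount, filter, scaling, set of libraries and block, and leaving out each library.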

Additional observations from a re-analysis of the deposited data

How the results depend on the processing

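The numbers of members called between J2 and flow-through were 1 in KO, 0 in adults and 2 in WT. Rescaling to a common total, counted without the mitochondrially encoded genes, gave 19, 11 and 19. With no filter on low values adults had 1 (Snora24, adjusted p 0.0279) and WT had 1. A pseudocount of 10 gave 0 in WT, as did a fit to the WT libraries alone. With the shared code of J2 and flow-through libraries as a replicate block, KO had 0 and WT 0 (Snora24 adjusted p 0.0826 in KO and 0.114 in WT). The deviations of same-code libraries correlated between -0.026 and 0.031, which shows no shared deviation and does not show whether they come from 1 animal or input. Leaving out each library gave 0 to 1 in KO, 0 to 3 in WT, 0 to 1 for adults against WT in J2, and 0 elsewhere. No other setting moved a count of calls by over 1.5 times. The cause of these shifts was not tested. The difference in members listed was 9.67 in KO, 6.50 in adults and 13.7 in WT at the level of 10 units, and without single libraries above 0 it was 37.2 to 43.7, 17.0 to 75.0 and 34.0 to 44.2. No count test was run, since whole reads could not be recovered, and the reads behind a value of 0 are unknown.

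Log2 differences between J2 and flow-through that changed sign belonged to members that were not called. Rescaling gave 3.54 for Scarna13 in adults and 2.29 in WT, and 1.55, 2.90 and 0.96 for Scarna2 in KO, adults and WT. In adults it gave 2.90 for Snora15, 2.87 for Snora73a, 2.32 for Snord104 and 1.05 for Snord83b, and in KO 2.29 for Snord17. Quantile normalization gave -0.047 for Scarna13, -0.15 for Snord15b and 0.36 for Snord17 in KO, -0.037 for Snord15b in WT and -0.46 for Snora57 in adults. A pseudocount of 10 gave -0.19 for Snora57, -0.61 for Snora73b and -0.00044 for Snord22 in adults and -0.0095 for Snora73a in WT.

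Leaving out single libraries gave, in KO, ranges of -0.17 to 0.98 for Scarna13, -0.042 to 0.68 for Snora73a, -0.14 to 1.504 for Snord104, -0.094 to 0.93 for Snord13, -0.82 to 0.84 for Snord15a, -0.43 to 0.76 for Snord15b and -1.36 to 0.42 for Snord17. In adults they were -2.25 to 0.19 for Scarna2, -0.37 to 3.46 for Scarna6, -1.80 to 0.40 for Snora15, -1.71 to 1.87 for Snora57, -2.30 to 0.77 for Snora73a and -3.08 to 3.93 for Snora73b. Further adult ranges were -2.35 to 0.024 for Snord104, -0.20 to 2.26 for Snord13, -1.64 to 2.66 for Snord15a, -1.19 to 1.91 for Snord15b, -0.41 to 5.60 for Snord17, -0.87 to 1.38 for Snord22 and -2.54 to 1.05 for Snord83b. In WT they were -0.84 to 1.44 for Snora23, -0.84 to 1.52 for Snora73a, -0.048 to 1.38 for Snora73b and -0.28 to 0.9998 for Snord15b.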
